A study of Mus musculus with 2 samples.

Results

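The cells described here are fetal lymphoid cells marked by Gzma and Cd3g, found among sorted tdTomato-positive cells of E14 mouse embryos. Barcodes with at least 1000 UMIs (unique molecular identifiers, each standing for 1 captured transcript) and at most 10% of them from mitochondrial genes were kept. The lymphoid cells were then selected on 4 measured criteria, namely at least 1 UMI of Ptprc (the pan-leukocyte gene for CD45), at least 3 UMIs in all of Gzma, Cd3g, Cd3e and Il2ra, fewer than 20 of the mast cell genes Cma1, Cpa3 and Tpsb2, and fewer than 5 of the macrophage genes C1qa, C1qb and C1qc. They number 171 of 22086 kept cells and of 651 kept cells with a Ptprc UMI, and are called members below. Their levels of the genes in these criteria describe how they were chosen and are no finding.

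Every embryo carried Myf5-Cre and a Rosa26 tdTomato reporter behind a stop cassette, so that cells with a history of Myf5 promoter activity, and their progeny, were labelled. The study compared Srsf2 f/w embryos (Het/tdT) with Srsf2 f/f embryos (MKO/tdT), in which Cre removed 1 or both copies of the floxed Srsf2, the gene of an SR splicing protein. Heads and viscera had been removed, trunks and limbs were dissociated with collagenase XI and dispase II, tdTomato-positive cells were sorted, and 1 10x Genomics 3′ library was made per genotype. The number of embryos behind each library is not given in the sources used here, and neither is whether the thymus stayed in the tissue. With 1 library per genotype no test between genotypes is possible, and the intervals below are 95% intervals that cover counting error only.

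The sources disagree on which library is which. The library with 15268 barcodes is headed Het/tdT in the study's supplement but belongs to the sample titled SRSF2f/f/Myf5-Cre/tdT, and the library with 12498 barcodes is headed MKO/tdT but belongs to the sample titled SRSF2f/w/Myf5-Cre/tdT. The names Het/tdT-headed and MKO/tdT-headed library are used here, and every direction between libraries turns around if the sample titles are right. The libraries' own summaries carry the names WT and KO, the same way round as the headings. Srsf2 (chromosome 11, 116849901 to 116853094, GRCm38) was lower in the MKO/tdT-headed library, which goes against the titles. Over all kept cells it stood at 218.6 CPM (UMIs of the gene per 1000000 UMIs in all, summed over cells) in the Het/tdT-headed library (interval 216 to 221) and at 153 in the MKO/tdT-headed library (151 to 155), and 81.0% and 67.7% of the cells had a UMI. Within the members the levels were 292 CPM (240.2 to 353) and 167 CPM (152 to 184), a log2 ratio of -0.81 (-1.11 to -0.49). The muscle progenitor genes Myf5 and Pax7 were lower in the MKO/tdT-headed library too, Myf5 being found in 7.98% and 0.483% of kept cells and Pax7 in 13.8% and 0.825%. All 17 members of the Het/tdT-headed library and 119 of the 154 in the MKO/tdT-headed library had a Srsf2 UMI. The counts were made over whole genes, so reads from exons outside the floxed part are included. Neither tdTomato nor Cre was among the genes counted, so whether a given member carried the reporter was not measured.

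T cells begin as Kit-expressing blood progenitors that enter the T lineage under Notch signalling, switch on Tcf7, Gata3 and Bcl11b, and assemble antigen receptor genes with the recombinase encoded by Rag1 and Rag2. The receptor is held at the surface by the CD3 chains, and before an alpha chain exists a beta chain pairs with the surrogate chain encoded by Ptcra. In the mouse fetus the first T cells rearrange gamma and delta receptor genes and appear in waves, and innate lymphoid cells such as NK cells arise alongside them from related precursors. Gzma encodes granzyme A, a serine protease of cytotoxic granules, and Il2ra encodes CD25, the alpha chain of the interleukin-2 receptor.

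The members were deeply sequenced cells. In the Het/tdT-headed library they held between 11708 and 32341 UMIs each (median 20529), and in the MKO/tdT-headed library between 5240 and 67837 (median 14412), against medians of 10957 and 9863 over all kept cells. The Het/tdT-headed members were thus the deeper ones. Their median mitochondrial share was 3.72% and 3.71%. The 2 libraries shared 74 barcode sequences, and 1 member of each library had such a barcode.

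Most members lay far from the limit of the selection. The summed UMIs of Gzma, Cd3g, Cd3e and Il2ra ranged from 3 to 263 (median 98) in the Het/tdT-headed library and from 4 to 269 (median 55.5) in the MKO/tdT-headed library, and 116 of the 171 members held 40 or more. Just inside the limit, 1 cell had a sum of 3 and 3 cells had a sum of 4. Just outside it, 2 cells had a sum of 2, 11 had a sum of 1 and 128 had none. A further 14 cells with a sum of at least 3 had no Ptprc UMI, and 6 were set aside for their mast cell genes, while no cell was lost to the C1q limit. The mast cell genes reached at most 14 UMIs in a member and the C1q genes at most 1.

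Members were far more frequent in the MKO/tdT-headed library. They made up 17 of 12144 kept cells in the Het/tdT-headed library, or 0.140% (exact Clopper-Pearson interval 0.0816 to 0.224), and 154 of 9942 in the MKO/tdT-headed library, or 1.55% (1.32 to 1.81). The ratio of the shares was 11.1, a log2 ratio of 3.47 (2.75 to 4.19). Among cells with a Ptprc UMI the gap was smaller, at 14.3% (8.55 to 21.9) and 28.9% (25.1 to 33.0), a ratio of 2.03.

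The other leukocyte classes differed between the libraries by unequal amounts. Cells with a Ptprc UMI and at least 20 UMIs of the mast cell genes, named mast-gene cells here, stood at 0.206% and 2.21% of kept cells, a ratio of 10.7, close to that of the members. Cells with at least 5 UMIs of the C1q genes, named C1q cells, stood at 0.354% and 0.513%, a log2 ratio of 0.53 whose interval of -0.05 to 1.12 includes 0. The remaining Ptprc cells stood at 0.280% and 1.08%, a ratio of 3.84. The sort sets which cells enter each library, and a difference in the gate or in the dissociation cannot be told apart from one of genotype.

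**Figure D1:**
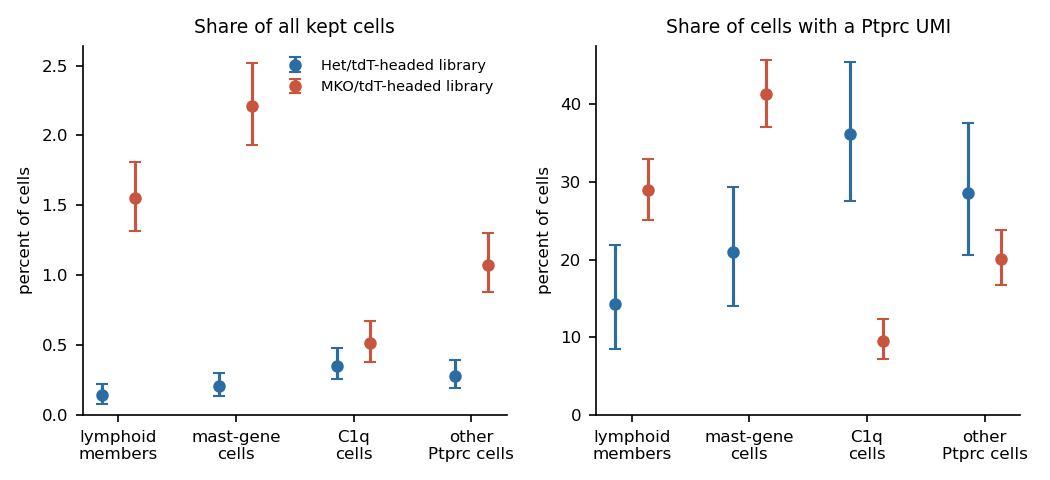
Percent of cells in each leukocyte class, as a share of all kept cells (left) and of kept cells with a Ptprc UMI (right), in the Het/tdT-headed and MKO/tdT-headed libraries, with exact 95% Clopper-Pearson bars. The members go from 0.140% to 1.55% of kept cells and the mast-gene cells from 0.206% to 2.21%, whereas the bars of the C1q cells overlap.

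The lymphoid label was checked on genes that the selection did not use. Of the genes listed for the CD3 complex and its signalling, 8 are not selection genes, and of these 8 all had UMIs in the members and 6 were found in at least 50% of them. Cd3d, a CD3 chain, was found in 144 of 171 members (84.2%) and in 0.408% of the mast-gene cells, which should lack it and had median depths of 23652 and 19152 UMIs. Lck, the kinase that phosphorylates the CD3 chains, was found in 151 members and 1.22% of mast-gene cells. Cd247, the zeta chain, was found in 68 members and in no mast-gene cell. Lat, an adaptor that acts below the receptor, was found in 151 members but also in 59.2% of the mast-gene cells, so it did not set the members apart. Zap70, the kinase that docks on the CD3 chains, was sparse, with 24 UMIs in 21 members.

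Against all other Ptprc cells, the members stood higher by a log2 ratio of 10.19 for Cd3d (9.07 to 11.64), 6.70 for Lck (5.97 to 7.55) and 8.29 for Cd247 (5.78 to 13.61). Of 10003 genes with at least 50 UMIs in the classes together, 8.51% lay more than 2-fold above and 16.4% more than 2-fold below the other Ptprc cells. By the same measure 5 of the 7 ranked genes of the CD3 list that the selection did not use, and 10 of 11 of the T-lineage list, lay more than 2-fold above. All 8 ranked mast cell genes and all 10 macrophage genes lay more than 2-fold below, which for the C1q and mast genes follows from the selection.

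Cd3g, Cd3d and Cd3e lie side by side on chromosome 9 (GRCm38), Cd3g at 44969572 to 44980431, Cd3d at 44981786 to 44987339 and Cd3e at 44998740 to 45009627. Cd3g and Cd3d are transcribed away from each other from starts 1355 bases apart in RefSeq. Cd3g had 4749 UMIs in 166 members, Cd3d 2371 in 144 and Cd3e 1100 in 146. Of the 166 members with Cd3g, 22 had no Cd3d UMI and 20 no Cd3e UMI, and no member had Cd3d or Cd3e without Cd3g. Cd3g and Cd3e helped to choose the members, and Cd3g had the most UMIs, so these counts describe the selection and the depth of each gene. The 250 bases before the RefSeq start of each gene (GRCm38.p6) are shown because these 3 neighbouring genes mark the members, followed by those of Ptcra and Rag1, by which the members are divided below.
Cd3g, chr9:44980432-44980681, minus strand: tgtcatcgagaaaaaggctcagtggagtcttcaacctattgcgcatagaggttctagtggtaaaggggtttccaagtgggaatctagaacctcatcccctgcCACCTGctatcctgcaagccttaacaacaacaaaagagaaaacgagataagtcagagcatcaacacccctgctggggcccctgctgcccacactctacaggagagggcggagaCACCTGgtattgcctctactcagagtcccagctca
Cd3d, chr9:44981536-44981785, plus strand: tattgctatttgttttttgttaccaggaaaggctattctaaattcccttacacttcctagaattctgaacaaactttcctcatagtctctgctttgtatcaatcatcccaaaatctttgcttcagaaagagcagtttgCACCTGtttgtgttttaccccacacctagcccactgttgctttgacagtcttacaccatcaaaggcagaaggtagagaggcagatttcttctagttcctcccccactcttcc
Cd3e, chr9:45009612-45009861, minus strand: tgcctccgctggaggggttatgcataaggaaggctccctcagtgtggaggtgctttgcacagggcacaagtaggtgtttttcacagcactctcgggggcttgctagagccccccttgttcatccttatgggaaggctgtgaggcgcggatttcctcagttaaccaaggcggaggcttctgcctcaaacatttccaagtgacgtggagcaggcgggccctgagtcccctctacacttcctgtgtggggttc
Ptcra, chr17:46763713-46763962, minus strand: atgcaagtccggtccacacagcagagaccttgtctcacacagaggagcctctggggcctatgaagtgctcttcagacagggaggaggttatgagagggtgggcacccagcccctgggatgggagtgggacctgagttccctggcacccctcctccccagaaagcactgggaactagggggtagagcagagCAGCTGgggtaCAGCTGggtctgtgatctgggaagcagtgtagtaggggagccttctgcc
Rag1, chr2:101649533-101649782, minus strand: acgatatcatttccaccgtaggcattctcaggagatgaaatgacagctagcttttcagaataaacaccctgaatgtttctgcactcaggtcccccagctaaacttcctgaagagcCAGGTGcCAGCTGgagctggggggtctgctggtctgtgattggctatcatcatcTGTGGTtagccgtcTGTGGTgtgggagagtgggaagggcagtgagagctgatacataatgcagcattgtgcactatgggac
Capitals mark the E-box letters CAGCTG or CACCTG and the RUNX letters TGTGGT, each searched on both strands. E-box letters were found 2 times before Cd3g, Ptcra and Rag1, once before Cd3d and not before Cd3e, and RUNX letters were found 2 times before Rag1 and before none of the others. Of 32851 RefSeq promoters, 27.7% hold such an E-box in the same 250 bases and 5.21% hold at least 2. The RUNX letters are held by 14%, and 1.27% hold them at least 2 times. These matches describe letters and show no binding.

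Receptor constant genes were found in nearly every member, and those of beta, gamma and delta chains stood together. A beta constant gene was found in 169 members, with Trbc1 in 151 (766 CPM) and Trbc2 in 168 (1482 CPM). A gamma constant gene was found in 137 members and the delta constant gene Trdc in 85, and 72 members had both. Only 19 members had a beta constant gene without any gamma or delta constant gene. Trac, the alpha constant gene, gave 3 UMIs in 2 members, fewer per cell than in mast-gene cells, 8.98% of which had a UMI. Trbc1 and Trbc2, and the gamma constant genes among themselves, are near-identical copies whose reads the counting could split or discard, so their separate levels are uncertain, and an unrearranged locus can also be transcribed.

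Variable segments were sparse in this 3′ assay, which reads the far end of the transcript. Of 176 segment genes counted, 18 had a UMI in the members and 7 had at least 5. Trgv2 gave 101 UMIs in 42 members, 3 in the Het/tdT-headed and 39 in the MKO/tdT-headed library, and none in any other Ptprc cell. Trdv4 gave 93 UMIs in 42 members, all in the MKO/tdT-headed library, but 46.1% of the mast-gene cells also had it, so a Trdv4 UMI did not mark the members. The remaining segments were Tcrg-V1 with 11 UMIs, Tcrg-V4, Tcrg-V5 and Trbv13-2 with 6 each, and Trbv12-2 with 5.

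Genes of early T-lineage development were found in a large share of the members. Tcf7, a transcription factor of T commitment, was found in 149 of 171 (226 CPM), Lef1, its relative, in 111, and Bcl11b, which seals T fate, in 91. Rag1 was found in 88 members, 7 of 17 in the Het/tdT-headed library and 81 of 154 in the MKO/tdT-headed library. Ptcra was found in 107, 10 of 17 (88.6 CPM) and 97 of 154 (96.6 CPM). In the mast-gene cells the shares were 0.408% for Rag1 and 1.63% for Ptcra. The levels of both genes differed between libraries by less than their counting error, with log2 ratios of 0.29 (-0.27 to 0.90) for Rag1 and 0.13 (-0.40 to 0.70) for Ptcra. Rag2, the partner of Rag1, gave 10 UMIs in 10 members. The co-stimulatory receptor genes Cd27 and Cd28 were found in 131 and 99 members, and Thy1, a surface marker of T cells, in 120.

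The coreceptor genes and a few others were sparse. Cd4 had no UMI in 171 members, which allows a share of up to 1.75% of cells with a UMI and does not limit the share expressing it, and Dntt, the template-free polymerase of later receptor assembly, had none either. Cd8a had 4 UMIs in 4 members and Cd8b1 14 in 9, and only 1 member had both. Cd5, which rises with receptor signalling, gave 6 UMIs in 6 members.

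The genes that stood out most against all other kept cells were largely receptor genes and genes with less familiar links to lymphocytes. Among genes found in at least 20% of the members, the 25 highest included the 4 selection genes, which stand there by the choice of cells, and Trgv2, Tcrg-C1, Tcrg-C2, Tcrg-C4, Cd3d, Trbc1, Trbc2, Rag1 and Themis, a regulator of thymocyte selection found in 55 members. Cd163l1, a scavenger receptor gene known from gamma-delta T cells, was found in 67 members. Spib, an Ets family factor, was found in 61 members, and Sh2d1a, an adaptor of SLAM receptors, in 54. Insl5, which encodes an insulin-like peptide, was found in 145 members (288 CPM against 1.16 CPM in the other Ptprc cells). Khdc1a, Myl10, Prss57, Sla2 and Akr1c13 were found in 101, 100, 106, 142 and 111 members, and Akr1c12 and Akr1c13 are close copies whose split is uncertain. Against the other Ptprc cells the 15 highest added Fbp1, a gluconeogenic enzyme gene found in 121 members, and Pgam2, a glycolytic enzyme gene found in 72.

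**Figure D2:**
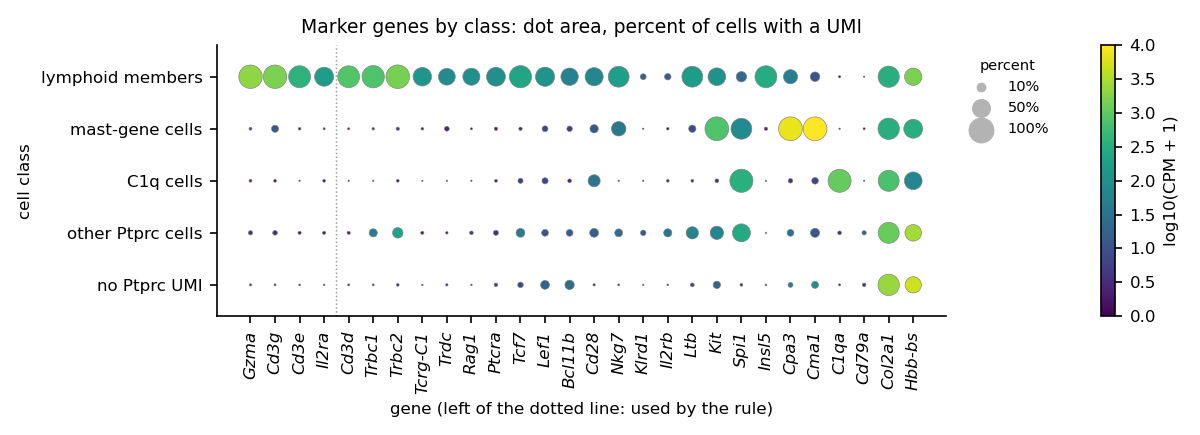
Marker genes (columns) in 5 classes of kept cells (rows), where dot area gives the percent of cells with a UMI and colour gives log10(CPM + 1). Genes left of the dotted line chose the members. Cd3d, Trbc2, Tcf7, Rag1 and Insl5 have their largest dots in the members, while Kit, Nkg7, Col2a1 and Hbb-bs are found in several classes.

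Cytotoxic and innate lymphoid genes were uneven. Gzma, by which the members were chosen, was found in 166 of them at 2111 CPM, with a median of 45 UMIs per member in the Het/tdT-headed and 23 in the MKO/tdT-headed library. Gzmb was found in 47 members (66.1 CPM) but in 80.8% of mast-gene cells, and Prf1, the pore-forming protein of killer cells, gave 2 UMIs. Nkg7, a granule protein gene, was found in 131 members and 36.7% of mast-gene cells. Of the 16 listed genes of NK and group 1 innate lymphoid cells, 15 had a UMI and 2 were found in at least 20% of members. Eomes had none and Tbx21, the other T-box factor of NK cells, gave 2 UMIs. Of the 13 listed genes of group 3 innate lymphoid cells, 9 had a UMI and 4 were found in at least 20% of members, led by Ltb in 131 (154 CPM), and Il17a, Il17f, Il22 and Il23r gave none. Of the 11 listed group 2 genes, 8 had a UMI and 2 were found in at least 20% of members, Rora in 53 (44.9 CPM) and Gata3 in 54 (27.1 CPM), and Il5, Klrg1 and Ptgdr2 gave none. The lists summed to 275 CPM for group 3 and 86.6 CPM for group 2.

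Within the lists of markers of other lineages, some genes had no UMI and others were found. Cd79a, Pax5, Vpreb1, Vpreb3 and Ms4a1 of B-lineage cells had no UMI, and neither did Mcpt4, Fcer1a and Ms4a2 of mast cells, Pax7 and Myf5 of muscle progenitors or Itgax and Siglech of dendritic cells. Cd79b of the B-lineage list was found in 33 members, and Cpa3, Cma1 and Hdc of the mast cell list in 60, 27 and 23. The B-lineage list summed to 44.2 CPM in the members, led by Ebf1 (25.7 CPM), which mesenchymal cells also express and which was found in 50.6% of cells without a Ptprc UMI. The mast cell list summed to 71.9 CPM, against 25829 in the mast-gene cells. Transcripts of the surrounding tissue were present at a low level, with Col2a1, the cartilage collagen gene, found in 136 members and in 77.7% to 80.9% of cells of the other classes.

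Some members carried many UMIs of another cell type's genes. By a rule of at least 3 UMIs each of 2 genes from another lineage's list, 25 members were candidate doublets, 1 in the Het/tdT-headed and 24 in the MKO/tdT-headed library. The mesenchymal list marked 18 of them, the cartilage list 8 and the erythroid list 3. One member of the MKO/tdT-headed library held 9873 of the 10341 erythroid UMIs, and single members held 447 cartilage, 148 dendritic cell, 100 neuronal, 68 endothelial, 57 keratinocyte and 44 skeletal muscle UMIs. No doublet caller was run, and 146 members remained without the candidates, 0.132% and 1.31% of kept cells.

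The members fell into 3 groups by Rag1, Ptcra and NK receptor genes, a division chosen after their values were seen. The first group of 127 members had at least 1 UMI of Rag1 or Ptcra. A second group of 11 members had at least 3 UMIs in all of Klrd1, Il2rb, Ncr1, Klrb1c, Klrk1 and Klre1, and none of them had a Rag1 or Ptcra UMI. The remaining 33 members had neither. The group sizes depend on depth, and with members thinned to 5000 UMIs the second group held 6 and the last 75. In the Het/tdT-headed library the groups held 11, 0 and 6 members, and in the MKO/tdT-headed library 116, 11 and 27. The first group's share was 64.7% (38.3 to 85.8) and 75.3% (67.7 to 81.9). The second group's was 0 of 17, with an interval of 0 to 19.5%, and 7.14% (3.62 to 12.4). No difference between libraries was detectable at these numbers. The groups had median depths of 14353, 10335 and 21994 UMIs.

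**Figure D3:**
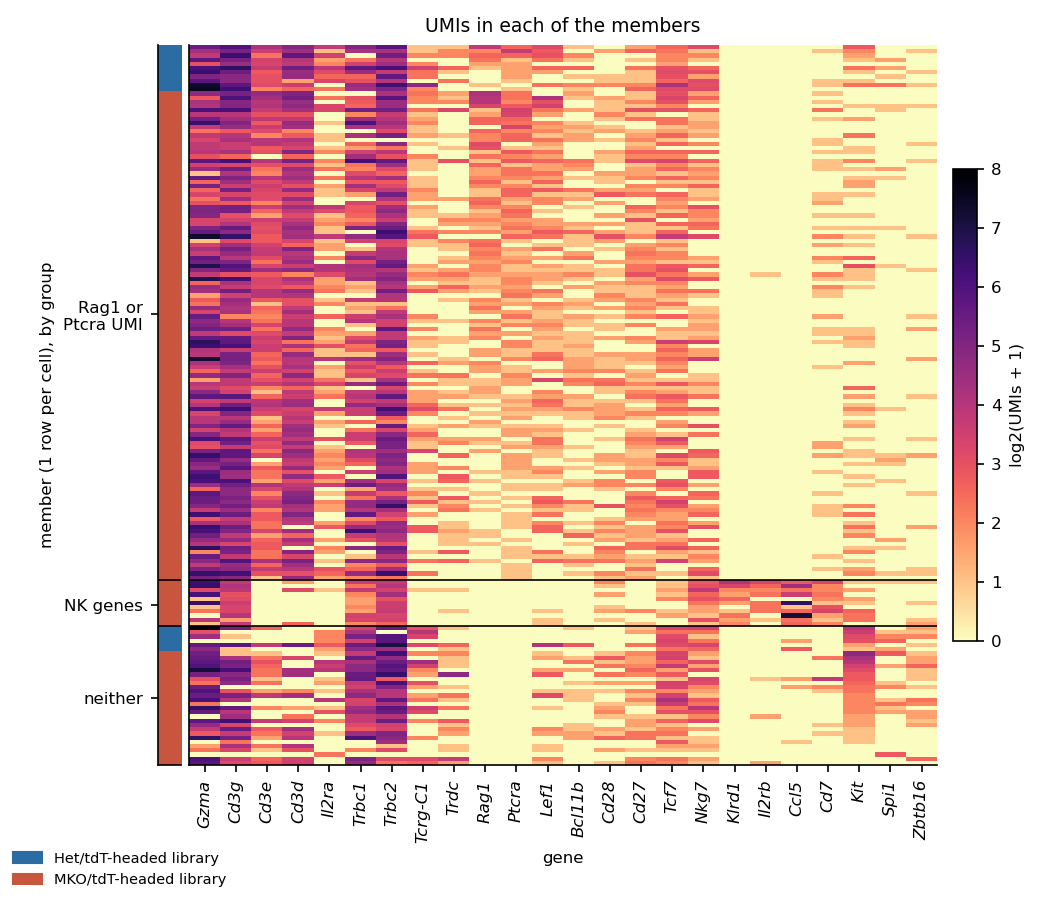
UMIs of 24 genes (columns) in each of the 171 members (rows), coloured by log2(UMIs + 1), with the library of each member in the strip on the left and lines between the 3 groups. Cd3e is filled in 125 of 127 members with Rag1 or Ptcra and empty in all 11 with NK genes, and Kit is filled in 28 of the 33 with neither.

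The 127 members with Rag1 or Ptcra had some of the other T-lineage genes in most cells and others in few. Of the 18 listed T-lineage genes, 16 had a UMI in this group. Most of the 127 members had a UMI for each of 9 of these genes, Rag1 and Ptcra among the 9. Themis was found in 51, Rag2 in 8, Cd5 in 4 and Cd8a in 3. Cd3d, of the CD3 list, was found in 125 of the 127 (98.4%, interval 94.4 to 99.8), as was the selection gene Cd3e. Of the T-lineage list, Lef1 was found in 94, Cd27 in 106, Thy1 in 98 and Bcl11b in 78. Pld4, an endosomal nuclease gene, was found in 106 of these members, in none of the 11 with NK genes and in 6 of the 33 with neither. Ctla4, an inhibitory receptor of T cells, was found in 88, 0 and 11, and Nrp1, a co-receptor for semaphorins, in 71, 1 and 4. These 3 genes were picked from the leading genes of the group after their values were seen.

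The 11 members with NK genes had Trbc2 in every cell. Of the selection genes, Cd3g was found in every cell, through which those with little or no Gzma had entered, and Cd3e in none. Cd3g stood between 2 and 16 UMIs in each of them, Trbc2 between 5 and 19, and Cd3d was found in 3, at 2, 8 and 5 UMIs. Klrd1, the gene of the NK receptor subunit CD94, had up to 16 UMIs and was found in 10, while Il2rb, the shared interleukin-2 and interleukin-15 receptor chain, was found in 8. Other leading genes of the group, picked after their values were seen, are given as a description. Tyrobp, the signalling adaptor DAP12 of NK and myeloid cells, was found in all 11, Klrb1b, another NK receptor gene, in all 11 and in no other member, and Ctsw, a granule cathepsin gene, and Ccl5, a chemokine gene, in 10 each. Ccl5 reached 97 and 139 UMIs in 2 of them. Bcl11b and Tcrg-C2 were found in none, Thy1 in 1 and Il2ra in 1. One of the 11 held 67837 UMIs, the most of any member, with 3 UMIs of the NK genes. Candidate doublets made up 2 of the 11. Some lists of other cells were higher in the 11 than in the first group. The endothelial list summed to 466 and 55.6 CPM, skeletal muscle to 270 and 10.3, mesenchymal to 880 and 417 and cartilage to 989 and 338. Single cells carried much of the endothelial and skeletal muscle sums. One of the 11 held 44 of their 47 skeletal muscle UMIs. Cdh5 (23 UMIs), Emcn (14) and Kdr (11) of the endothelial list were each found in 1 of the 11. The erythroid, neuronal, keratinocyte and neutrophil lists were lower. The stress and immediate early list summed to 4153 and 855 CPM. The part of doublets in this was not tested. All 11 came from the MKO/tdT-headed library.

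The 33 members with neither set of genes more often had a UMI of the progenitor gene Kit. Kit, the stem cell factor receptor, was found in 28 of them (84.8%, interval 68.1 to 94.9) at 238 CPM, against 59 of 127 (46.5%, 37.6 to 55.5) at 57.1 CPM in the first group. Spi1, the myeloid and early lymphoid factor PU.1, was found in 13 of 33 and 18 of 127, and Zbtb16, the innate lymphoid factor PLZF, in 19 of 33 and 18 of 127. Cd3e and Cd3d were found in 21 and 16 of the 33 and Il2ra in 18. Tcf7 was found in 32 of the 33 and 110 of the 127 (266 and 226 CPM), and the receptor constant list summed to 2893 and 2562 CPM. These members were deeper, so the shares were also taken after thinning every member to 5000 UMIs in a single random draw, with the groups kept as above, a comparison added after seeing the data. Kit was then found in 51.5% (33.5 to 69.2) of the 33 and 23.6% (16.5 to 32.0) of the 127, and Cd3d in 45.5% (28.1 to 63.6) and 94.5% (89.0 to 97.8). Cd3e, a selection gene, stood at 42.4% and 85.8%, and Zbtb16 at 27.3% (13.3 to 45.5) and 7.09% (3.29 to 13.0), where the intervals nearly met. For Spi1, at 18.2% and 3.94%, for Lef1, at 21.2% and 47.2%, and for Tcf7, at 66.7% and 60.6%, the intervals overlapped. Kit and the mast cell gene Cpa3 are both abundant in mast-gene cells, where Kit stood at 771 CPM. Cpa3 was found in 22 of the 33 and 37 of the 127 (120.3 and 26.1 CPM), and the mast cell list summed to 138 and 50.2 CPM. The dendritic cell list summed to 213 and 18.7 CPM and the erythroid list to 14243 and 136 CPM, largely through the single members named above. Candidate doublets made up 10 of the 33 and 13 of the 127, and their part in these differences was not tested. Across all members, Kit was found in 26 of 32 cells with Spi1 and in 68 of 139 without it. These counts were taken without thinning, and deeper members can have a UMI of both genes more often.

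The 17 members of the Het/tdT-headed library fell into the first and the last of these groups. The summed UMIs of Rag1 and Ptcra were 18, 15, 10, 5, 4, 3, 2, 2, 1, 1 and 1 in the 11 of the first group. In the 6 others, Gzma stood at 206, 26, 21, 47, 7 and 0 UMIs, and Kit at 14, 1, 8, 2, 11 and 7. Of these 6, 2 had Cd3e (5 and 13 UMIs), and Il2ra was found in 5, at 2 to 6 UMIs. The last of them entered the selection on 3 UMIs of Il2ra alone.

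T-lineage genes were compared between the libraries within the members. Of 5652 genes with at least 50 UMIs over both libraries, 8.63% lay more than 2-fold higher in the MKO/tdT-headed members and 3.18% more than 2-fold lower. Without candidate doublets 224 of 4711 genes (4.75%) were higher and 124 (2.63%) lower. Of the 7 ranked genes of the CD3 list that the selection did not use, 1 was higher and none lower, and of the 11 ranked T-lineage genes 2 were higher and none lower, and with so few genes these counts are not set apart from the shares over all genes. The median log2 ratio was 0.16 for these CD3 genes and -0.08 for the T-lineage list, beside -0.05 over all ranked genes. Cd3d stood at 735 CPM in the Het/tdT-headed and 823 CPM in the MKO/tdT-headed members.

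Counting intervals excluded 0 for many genes, lying above it for 9.98% and below it for 12.2% of the 5652, so such an interval is not particular to the genes named next. Cd28 stood at 18.8 and 76.6 CPM (log2 ratio 2.03, 0.96 to 3.36), Ccr9, a chemokine receptor of thymus-seeding and gut-homing cells, at 5.37 and 45.5 CPM (3.09, 1.20 to 6.15), and Ltb, the gene of lymphotoxin beta, at 72.5 and 166 CPM (1.20, 0.64 to 1.82). Kit was lower in the MKO/tdT-headed members, at 174 and 94.2 CPM (-0.89, -1.29 to -0.47), as were Spi1, at 53.7 and 17.3 CPM (-1.64, -2.43 to -0.80) and Tcrg-C1, at 252 and 109 CPM (-1.21, -1.56 to -0.86). Within the first group alone the log2 ratios were 1.36 for Cd28, 3.33 for Ccr9, 0.71 for Ltb, -0.95 for Kit, -2.13 for Spi1 and -1.30 for Tcrg-C1, so each kept its direction there. Ccr9 rests on 2 UMIs in the Het/tdT-headed members. Gzmb (209 and 45.1 CPM) and Il1r2, the decoy interleukin-1 receptor, were among the 8 lowest ratios, and 1 Het/tdT-headed member held 38 of the 193 Gzmb UMIs and 1 held 39 of the 208 Il1r2 UMIs. Without that member the log2 ratio went from -2.21 to -1.35 for Gzmb and from -2.21 to -1.41 for Il1r2. Within the first group Gzmb did not differ beyond counting error (-0.14, -1.21 to 1.14), and 70 of its 78 Het/tdT-headed UMIs lay in the 6 members with neither set of genes. Il1r2 stood at -1.72 (-2.83 to -0.50) in the first group.

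Thinned to 5000 UMIs, a depth that every member reached, the intervals of 1 of 37 genes did not overlap between the libraries, by a narrow margin in a single random draw. That gene, Ltb, was found in 17.6% (3.80 to 43.4) of Het/tdT-headed members and 51.9% (43.8 to 60.1) of MKO/tdT-headed members. Without thinning the shares were 12 of 17 and 119 of 154. Rag1 stood at 23.5% and 33.1%, Ptcra at 29.4% and 34.4%, Cd28 at 11.8% and 33.8% and Kit at 52.9% and 27.9%, all with overlapping intervals.

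**Figure D4:**
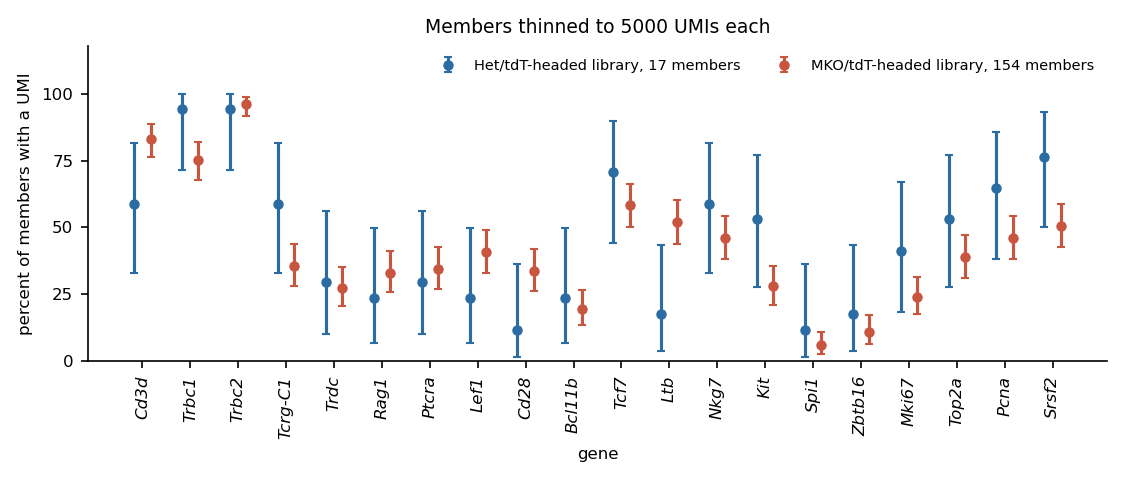
Percent of members with a UMI of each gene after every member was thinned to 5000 UMIs, for the 17 Het/tdT-headed and 154 MKO/tdT-headed members, with exact 95% Clopper-Pearson bars. The bars of Rag1, Ptcra, Kit and Mki67 overlap, and those of Ltb do not.

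Several of the highest ratios between the libraries rested on single members or on candidate doublets. Ccl21a, Hba-a2, Hbb-bs, S100a4, Npy, Hba-a1, Map1b and Mef2a led, with log2 ratios of 3.97 to 6.31. For Hba-a2, Hbb-bs, Npy and Hba-a1, 1 member held 93.4% to 97.1% of the UMIs, and without it the log2 ratios were 0.79, 0.43, 0.56 and -0.83. Hba-a1 and Hba-a2 are near-identical copies. Without candidate doublets the log2 ratio went from 6.31 to 1.93 for Ccl21a and from 4.40 to 1.71 for Map1b. S100a4, a calcium-binding protein gene, went from 4.93 to 4.24, and Mef2a, a transcription factor gene, from 3.97 to 2.49, each against 1 UMI in the Het/tdT-headed members. S100a4 was found in 9 of the 11 members with NK genes, 14 of the 33 with neither set and 5 of the 127 with Rag1 or Ptcra. The list of stress and immediate early genes, which dissociation is known to induce, summed to 569 CPM (495 to 651) in the Het/tdT-headed members and 1153 CPM (1111 to 1195) in the MKO/tdT-headed members. In the latter 8 of its 9 ranked genes lay more than 2-fold higher, against 8.63% of all 5652 ranked genes. The 24 candidate doublets of the MKO/tdT-headed library moved with this result. Without the candidate doublets the sums were 586 and 546 CPM, a log2 ratio of -0.10 (-0.32 to 0.12). The mesenchymal list, which marked 18 of the candidates, stood at 169 and 433 CPM with them, a log2 ratio of 1.36. Without them it stood at 162 and 128 CPM, a log2 ratio of -0.34 (-0.76 to 0.11). Leaving out cells marked by the mesenchymal list lowers its sum by construction.

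Genes of G2 and M phase were lower in the MKO/tdT-headed members. The 10 genes of G2 and M phase summed to 1972 CPM (1832 to 2120) in the Het/tdT-headed members and 876 CPM (840 to 913) in the MKO/tdT-headed members, a log2 ratio of -1.17 (-1.29 to -1.05). Of 9 ranked genes 6 lay more than 2-fold lower, against 3.18% of all 5652 ranked genes. Kpna2, Hmmr, Ccnb1 and Aspm were among the 8 lowest ratios over all genes, and the log2 ratio of Hmmr went from -2.34 to -1.53 without the Het/tdT-headed member that held 11 of its 23 UMIs there. Top2a, the topoisomerase of dividing cells, stood at 598 and 231 CPM, and Mki67, a marker of cycling cells, at 215 and 114 CPM. After thinning to 2000 UMIs, 6 of 17 (35.3%, 14.2 to 61.7) and 20 of 154 (13.0%, 8.12 to 19.3) members had a Mki67 UMI. Without candidate doublets the log2 ratio of the list was -1.12. The S phase list differed less, at 1197 and 967 CPM, and without candidate doublets at 1125 and 1073 CPM, a log2 ratio of -0.07 (-0.23 to 0.09). Other lists were lower in the MKO/tdT-headed members as well. The blood progenitor list, led by Kit, stood at 274 CPM (223 to 332) and 147 CPM (133 to 163), and the receptor constant list at 3228 and 2458 CPM.

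A lower level was seen in every class, not in the members alone. The G2 and M list was lower in the MKO/tdT-headed library by a log2 ratio of -1.29 in the mast-gene cells, -1.09 in the C1q cells, -0.34 in the other Ptprc cells and -0.75 in the cells without a Ptprc UMI. The members' level was the highest of the 5 classes in each library, although in the MKO/tdT-headed library its interval overlapped that of the other Ptprc cells (798 to 887). The SR protein list, Srsf2 included, stood at 2869 and 2578 CPM in the members, a log2 ratio of -0.15 (-0.25 to -0.06), beside -0.13 in the cells without a Ptprc UMI.

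**Figure D5:**
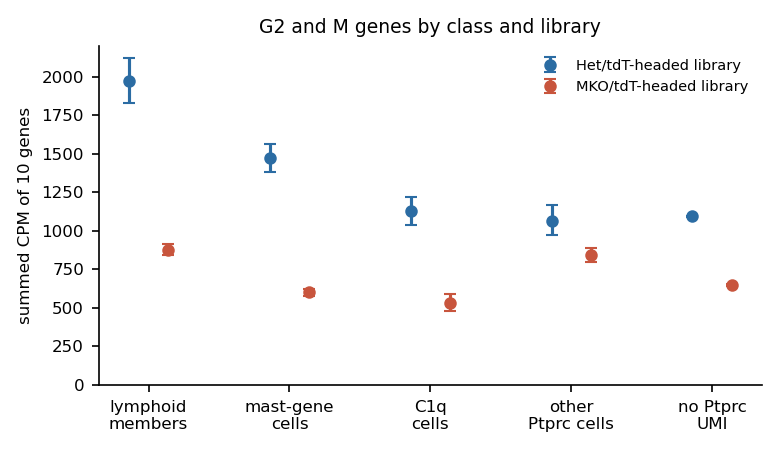
Summed level (CPM) of 10 G2 and M phase genes in 5 classes of kept cells in the Het/tdT-headed and MKO/tdT-headed libraries, with exact 95% Poisson bars. The MKO/tdT-headed library is lower in every class, and the members go from 1972 to 876 CPM.

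Xist was found in 0.115% and 0.161% of kept cells and the Y-linked gene Ddx3y in 65.1% and 62.3%. Among members, Ddx3y stood at 93.9 and 91.9 CPM, while Eif2s3y, also Y-linked, stood at 91.2 and 42.8 CPM, a log2 ratio of -1.09 (-1.66 to -0.49).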

How the data were processed

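The deposited matrix holds counts, whole UMIs for 32285 genes and 27766 barcodes, which the authors made with Cell Ranger (5.0.0 in the file's header, 3.1.0 in the submitters' processing notes, which also name STAR and Seurat 3.1.1) on mm10 and aggregated after down-sampling reads. Reads per library were 571426356 (Het/tdT-headed) and 575393483 (MKO/tdT-headed), at 39.5% and 45.9% saturation. Barcodes were assigned to libraries by suffix, matched through the cell numbers in each library's own summary. Of the gene identifiers, 99.6% were found in GENCODE M21 (GRCm38), which gave coordinates.

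Members were taken by the rule stated in the report. The members and the gene lists were chosen with earlier results of these data known. Shares have exact Clopper-Pearson intervals, UMI sums exact Poisson intervals, CPM ratios exact intervals from the binomial split of the UMIs, and ratios of shares log-scale intervals. A count of 0 was taken to allow 3 counts. No p-value was computed. Thinning drew UMIs without replacement from each cell. Named genes were those of 31 fixed lists, the 25 highest ratios against all other kept cells and the 15 highest against other Ptprc cells among genes found in at least 20% of members, the 8 highest and 8 lowest ratios between libraries among genes with at least 50 UMIs, and receptor segments with at least 5 UMIs. Leading genes of the 3 member groups (Pld4, Ctla4, Nrp1, Tyrobp and Klrb1b) and the groups themselves were chosen after the values were seen. Python 3.11.15, NumPy 2.4.6, SciPy 1.17.1 and pandas 2.3.3 were used, and the statistics were tested on simulated data. Doublets were marked by the rule given, not removed. Promoter sequences are from RefSeq (GRCm38.p6). Some genes of the lists are not reported here.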

Additional observations from a re-analysis of the deposited data

How the results depend on the processing

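No paired analysis was possible because each genotype has 1 library. The share of members was recomputed under 11 planned limits and thresholds, under thinning and with another denominator. The settings without candidate doublets, without the Ptprc limit, with the titles' genotypes, with members thinned to 5000 UMIs, with NK gene sums of at least 2 and 5 and without the member with most haemoglobin UMIs were added after seeing the data. Under the limits and thresholds, thinning to 2000 UMIs and without candidate doublets the ratio of the shares ranged from 9.92 to 12.1, while the share in the MKO/tdT-headed library moved to 1.28% with at least 2 Ptprc UMIs and to 1.31% without candidate doublets. Thinning to 2000 UMIs before the selection left 64 members, 0.0585% and 0.589% of cells. With Ptprc cells as the denominator the shares were 14.3% and 28.9% and their ratio 2.03. With genotypes as the sample titles give them the ratio is 0.0904. The supplement's headings, paired with the libraries through the summary names, and the lower Srsf2 run the other way. Myf5 and Pax7 were lower in the MKO/tdT-headed library as well. After thinning members to 2000 UMIs the 3 groups held 49, 3 and 119 members, and after thinning to 5000 the NK-gene group held 6 and the group with neither 75. With NK gene sums of at least 2 and at least 5 the NK-gene group held 13 and 8. The share with a Mki67 UMI was 41.2% in Het/tdT-headed and 24.0% in MKO/tdT-headed members at 5000 UMIs, with overlapping intervals. Without thinning it was 76.5% and 40.3%. Genes past 2-fold numbered 977 higher and 459 lower with at least 20 UMIs, 215 and 59 with at least 100, and 224 and 124 without candidate doublets, in place of 488 and 180. Without candidate doublets the CD3 list summed to 3854 and 4333 CPM, and in MKO/tdT-headed members the receptor constant list to 2747, the T-lineage list to 1173 and the NK list to 450.3 CPM. The log2 ratio of Hba-a1, 4.59 over all members, turned to -0.96 without candidate doublets and to -0.83 without the member with most haemoglobin UMIs. For the main comparisons, such as shares, group sizes and counts of genes past 2-fold, 77 recomputed values stayed within their set limits and 26 moved beyond them. Only 1 was reversed, the ratio of the shares under the titles' genotypes. Among the recomputed values that were tallied for single genes and lists, 179 stayed within the interval of the value reported and 29 moved beyond it. The 2 of these tallied as changed in sign were both Hba-a1. Outside that tally, log2 ratios of lists between the libraries also changed sign without candidate doublets. They went from 1.02 to -0.10 for stress, 1.36 to -0.34 for mesenchymal and 3.44 to -1.12 for erythroid genes. The rule that marked the candidates used the mesenchymal and erythroid lists, so leaving the candidates out lowers these 2 lists by construction. The stress list was not used by that rule, and the cause of its move was not tested. The 17 Het/tdT-headed members limit every comparison between libraries.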
